A study of Rattus norvegicus with 9 samples.

Results

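The genes described here are those of the rat major histocompatibility complex (MHC) and of the steps that load peptides onto its products. The set took every gene whose symbol begins with RT1-, the rat name for the MHC, and added B2m, Tap1, Tap2, Tapbp, Cd74 and Ciita. The rule for membership uses gene names and no measured value, although it was set with earlier results of these data known. It held 37 of the 34463 genes in the table, 31 of them with an RT1- symbol. In the Rnor_6.0 assembly 34 of the 37 lie on chromosome 20, while B2m lies on chromosome 3, Cd74 on chromosome 18 and Ciita on chromosome 10. A class I set of 25 genes and a class II set of 12 genes were formed from the gene symbols, with Cd74 and Ciita placed in class II.

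MHC class I molecules are made by nearly all nucleated cells and show fragments of proteins from inside the cell to CD8 T cells. Each consists of a heavy chain, beta-2-microglobulin and a peptide, and in rats the heavy chains come from a classical RT1-A region and from large families of nonclassical genes. MHC class II molecules pair an alpha and a beta chain, are made mainly by macrophages, dendritic cells and B cells, and show peptides from endosomes to CD4 T cells. In the healthy brain parenchyma class II is scarce, and macrophages at the borders of the brain and activated microglia are the cells best known for it.

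RNA was sequenced from medial prefrontal cortex (mPFC) tissue of male rats of the outbred SD strain, with 3 libraries in each of 3 groups. Rats of the Veh group were given vehicle, those of the Veh + CMS group also went through chronic mild stress (CMS) for 3 weeks, and those of the PHL + CMS group were given phloretin (PHL), a dihydrochalcone found in apples, before and during CMS. No group received PHL without CMS, and the age of the rats is not stated in the sources used here. The comparison of Veh + CMS with Veh asks what CMS did, and that of PHL + CMS with Veh + CMS asks what PHL did under CMS. The libraries are numbered 1 to 3 within a group without a statement that each came from its own rat, so p-values reflect only how these samples vary, which may in part be technical.

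Values are FPKM, fragments scaled to gene length and to library size, so levels of different genes can be compared per length. The libraries held 13913639 to 16960004 reads on genes. The 16159 genes whose FPKM averaged 0.5 or more were tested with limma on log2(FPKM + 0.1), a scale that understates the change of low genes. Myelin genes differed between libraries, with sums of 10 of them at 8448 to 11432 FPKM in the Veh + CMS libraries, at 7252 in PHL + CMS replicate 2 and at 2466 to 3485 in the other 5. All 10 of these rose in the Veh + CMS group compared with Veh (median log2 difference 1.69). In that comparison all 7 striatal genes lay above 0 (median 0.92) and all 6 genes of excitatory neurons below 0 (median -0.19). Whether the tissue taken or the expression of these genes differed was not tested, and in bulk tissue fewer cells of a type and less RNA per cell cannot be told apart.

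Of the 37 genes, 21 passed the filter on low values, 18 of class I and 3 of class II. The lowest that passed was RT1-CE7 with a mean of 0.547 FPKM, and the highest that did not were RT1-DMa and RT1-T24-1, each with a mean of 0.498 FPKM. Reads were found in all 9 libraries for 26 of the 37. RT1-M2 and RT1-Ha had no read in any library, 6 genes including these had fewer than 10 reads in all, and RT1-DOa, RT1-CE1 and RT1-Db2 had 2, 2 and 1. Together the 37 genes took 0.0368% to 0.0493% of the reads of a library, and B2m alone took 67.0% to 74.9% of those.

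**Figure D1:**
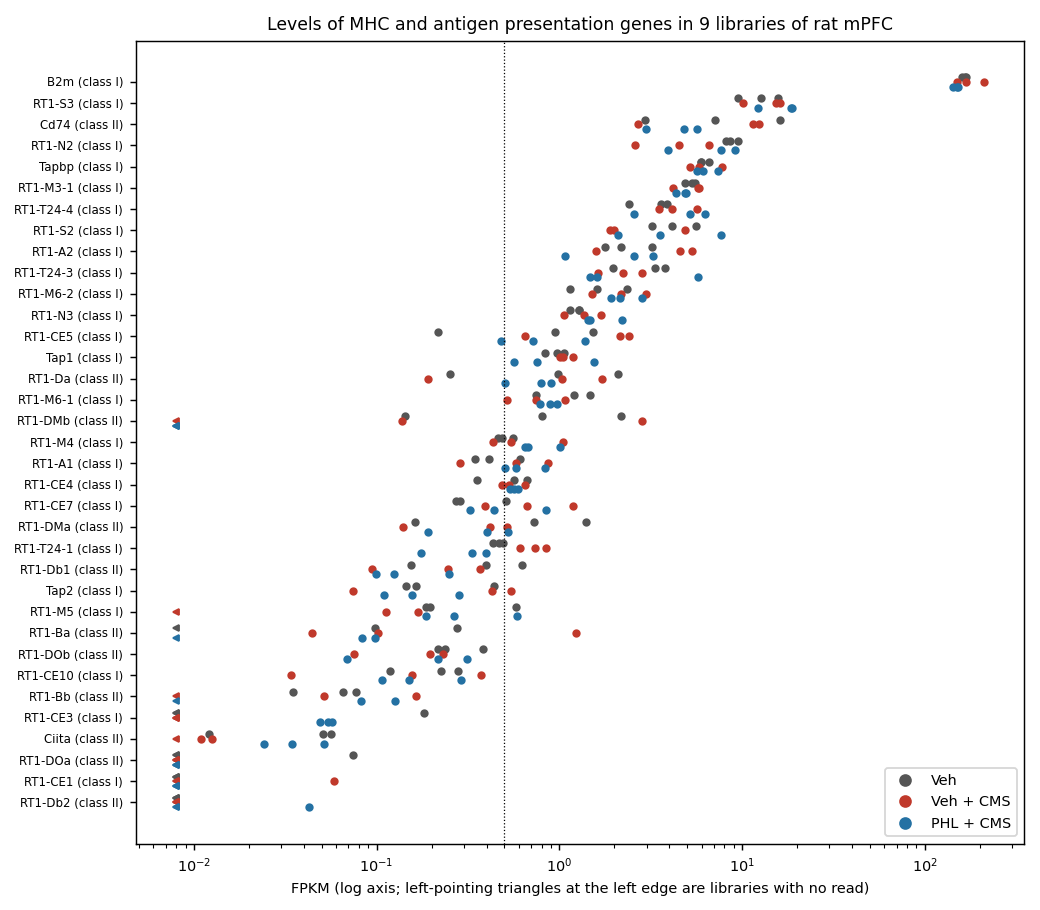
FPKM of the 35 genes with at least 1 read, ordered by their mean, on a log axis, with 1 point per library coloured by group. The dotted line marks the filter at 0.5 FPKM, B2m stands above all others, and most class II genes lie below the line with points spread over about a 10-fold range.

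The class I light chain, B2m, was the most abundant of the genes. Its level was 166, 168 and 160 FPKM in Veh replicates 1, 2 and 3, 150, 211 and 169 in Veh + CMS, and 151, 142 and 150 in PHL + CMS. Veh + CMS replicate 2 was the highest library, and each PHL + CMS library lay below each Veh library, while Veh + CMS overlapped both. The group means were 165 ± 4.18 FPKM (SD, n = 3), 176 ± 31.1 and 148 ± 4.88.

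Among the class I heavy chains the highest were nonclassical genes. RT1-N2, RT1-S2, RT1-N3, RT1-S3, RT1-T24-4 and RT1-T24-3 follow each other on chromosome 20 between position 3146856, where RT1-N2 starts, and 3233694, where RT1-T24-3 ends. RT1-S3 led with 15.8, 9.44 and 12.7 FPKM in Veh, 16.0, 15.3 and 10.2 in Veh + CMS, and 18.6, 18.7 and 12.3 in PHL + CMS. The groups of RT1-S3 overlapped in every comparison. RT1-N2 stood at 9.53, 8.20 and 8.58 FPKM in Veh, 2.59, 4.54 and 6.56 in Veh + CMS, and 7.65, 3.95 and 9.15 in PHL + CMS. All 3 Veh + CMS libraries of RT1-N2 lay below all Veh libraries, and PHL + CMS spanned both ranges.

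RT1-M3-1, the rat counterpart of the mouse H2-M3 gene that presents formylated peptides, was among the steadiest. It ran from 4.18 FPKM in Veh + CMS replicate 1 to 5.82 in Veh + CMS replicate 2, with 5.35, 4.88 and 5.55 in Veh, 4.18, 5.82 and 5.73 in Veh + CMS, and 4.89, 4.94 and 4.35 in PHL + CMS. RT1-T24-4 measured 3.58, 2.39 and 3.87 FPKM in Veh, 4.14, 5.70 and 3.50 in Veh + CMS, and 6.29, 5.20 and 2.56 in PHL + CMS. RT1-S2 measured 3.20, 5.60 and 4.13 FPKM in Veh, 1.98, 1.90 and 4.86 in Veh + CMS, and 3.55, 2.08 and 7.69 in PHL + CMS. For both genes the range within PHL + CMS was wider than the difference between any pair of group means.

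The classical class I gene RT1-A2 had a mean of 2.83 FPKM. It measured 2.16, 3.22 and 1.77 FPKM in Veh, 1.58, 4.55 and 5.30 in Veh + CMS, and 2.56, 3.25 and 1.08 in PHL + CMS. Veh + CMS replicates 2 and 3 were the highest of the 9, while replicate 1 of the same group was the second lowest. RT1-CE5 had its highest levels in the same libraries, with 0.945, 0.216 and 1.53 FPKM in Veh, 0.651, 2.13 and 2.42 in Veh + CMS, and 1.39, 0.479 and 0.722 in PHL + CMS. The other tested heavy chains, RT1-T24-3, RT1-M6-2, RT1-N3, RT1-M6-1, RT1-M4, RT1-A1, RT1-CE4 and RT1-CE7, had means from 0.547 FPKM for RT1-CE7 to 2.73 for RT1-T24-3.

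**Figure D2:**
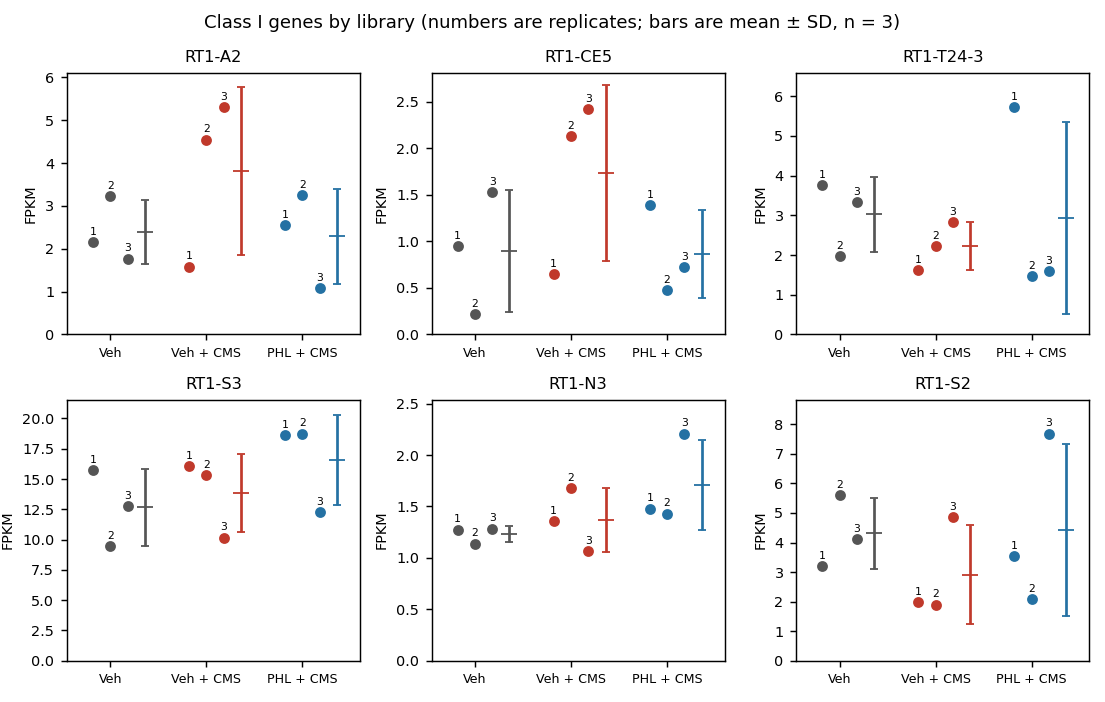
FPKM of 6 class I heavy chain genes in each library, with the replicate number above each point and the group mean ± SD (n = 3) beside the points. RT1-A2 and RT1-CE5 are highest in Veh + CMS replicates 2 and 3, RT1-N3 is higher in each PHL + CMS library than in each Veh library, and the SD bars of the groups overlap for most of the genes.

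Peptides reach class I heavy chains through the transporter made of Tap1 and Tap2, to which tapasin, the product of Tapbp, tethers the empty molecule. Tapbp was even across the libraries, with 5.97, 6.60 and 5.92 FPKM in Veh, 5.84, 5.21 and 7.77 in Veh + CMS, and 7.34, 6.11 and 5.64 in PHL + CMS. Tap1 measured 1.05, 0.835 and 0.970 FPKM in Veh, 1.00, 1.19 and 1.05 in Veh + CMS, and 1.56, 0.564 and 0.757 in PHL + CMS, so that its highest and lowest libraries both belonged to PHL + CMS. Tap2 had only 90 reads in all, 17, 6 and 5 in Veh, 22, 15 and 3 in Veh + CMS, and 12, 6 and 4 in PHL + CMS, and with a mean of 0.260 FPKM was not tested. The summed RT1- class I heavy chains came to 40.1 to 59.1 FPKM per library, and B2m exceeded that sum 2.56-fold to 4.25-fold.

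Reads of the heavy chains are not cleanly separable. The spans of 17 of the 37 genes overlap another annotated gene, and those of 9 overlap another of the 37, namely RT1-A1 with RT1-A2, RT1-M6-1 with RT1-M6-2, and RT1-CE1, RT1-CE3, RT1-CE4, RT1-CE5 and RT1-CE7 among themselves. RT1-S3, RT1-T24-4 and RT1-N3 lie opposite an antisense gene, AABR07044362.4, which had a mean of 7.22 FPKM, and no source used here says that reads were counted by strand. RT1-N2 and RT1-S2 lie opposite AABR07044362.3, with a mean of 0.248 FPKM. That gene was highest in Veh + CMS replicates 2 and 1 and PHL + CMS replicate 2, at 0.977, 0.509 and 0.357 FPKM. These were the libraries with the lowest RT1-N2, while Veh + CMS replicate 3 had 0. A relation between these genes was not tested. AABR07044362.3 averaged less than the filter of 0.5 FPKM, so its pattern may rest on few reads. How reads shared by near-identical copies were assigned is not stated in the sources used here, nor was the effect of SD alleles on their alignment to the reference tested, so levels of single heavy chain genes are uncertain.

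Class I promoters are known to carry an enhancer where NF-kappa B binds, next to an element read by interferon regulatory factors. RefSeq gives promoters (250 bases before to 50 after the start of the gene, GRCr8 assembly, whose coordinates differ from those of Rnor_6.0 above) for 32 of the 37 genes, 22 of class I and 10 of class II. A kappa B match, GGGATTCCC on either strand, was present in RT1-A1, RT1-A2, RT1-CE10 and RT1-CE4, and in 0.365% of the 33469 promoters of the table. The interferon response core, GAANNGAAA on either strand, was present in 9 of the 22 class I promoters and in 8.54% of all. These stretches are shown because they set RT1-A and some RT1-CE genes apart from the RT1-S, RT1-T24 and RT1-M3-1 genes. Capitals mark the kappa B match and the interferon response core, which reads TTTCNNTTC on the strand of these genes, and all are written 5′ to 3′ on that strand.
RT1-A1 (chr20:4907074-4907122, plus strand): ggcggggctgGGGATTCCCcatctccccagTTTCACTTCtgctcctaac
RT1-A2 (chr20:4872688-4872735, plus strand): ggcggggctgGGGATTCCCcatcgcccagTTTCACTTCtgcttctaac
RT1-CE10 (chr20:3385135-3385182, minus strand): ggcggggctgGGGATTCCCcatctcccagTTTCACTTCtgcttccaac
RT1-CE4 (chr20:3509311-3509359, minus strand): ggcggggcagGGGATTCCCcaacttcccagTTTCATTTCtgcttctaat
RT1-CE5 (chr20:3484218-3484246, minus strand): atctcccctgTTTCACTTCtgctcctaac
RT1-N2 (chr20:2646224-2646252, plus strand): tgcctagtgtTTTCCTTTCgcgaccatat

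In the first 4 the matches stand 10 or 11 bases apart. RT1-CE5 and RT1-CE3 hold the interferon response core but not these kappa B letters. Of the nonclassical genes at higher levels, RT1-N2 holds the interferon response core in other surroundings, and RT1-S3, RT1-S2, RT1-T24-3, RT1-T24-4 and RT1-M3-1 hold neither match in this window. B2m holds neither, while Tap2 and Tapbp hold the interferon response core.

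Most class II genes were low, and the 3 that were tested differed between libraries of the same group more than most genes of their level. Cd74, the invariant chain that guides class II molecules to endosomes and fills their groove, was the highest of them and the third highest of all 37. It measured 16.2, 7.07 and 2.94 FPKM in Veh, 2.68, 12.4 and 11.5 in Veh + CMS, and 5.65, 2.99 and 4.79 in PHL + CMS, from 58 to 362 reads per library. Veh replicate 1 was the highest and Veh + CMS replicate 1 the lowest, so that the Veh and Veh + CMS groups each held libraries near both ends of the 6.06-fold range. The PHL + CMS libraries lay within the lower part of that range.

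RT1-Da, the alpha chain of the RT1.D molecule, is the rat counterpart of human HLA-DRA. It measured 2.09, 0.983 and 0.253 FPKM in Veh, 0.192, 1.71 and 1.04 in Veh + CMS, and 0.796, 0.504 and 0.905 in PHL + CMS. Its partner RT1-Db1, the beta chain, measured 0.625, 0.396 and 0.154 FPKM in Veh, 0.0941, 0.368 and 0.245 in Veh + CMS, and 0.125, 0.0988 and 0.250 in PHL + CMS, from 117 reads in all. Both chains were highest in Veh replicate 1 and lowest in Veh + CMS replicate 1, the same libraries as for Cd74. RT1-Db2, annotated as a further beta chain, had 1 read.

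The RT1.B molecule, the counterpart of human HLA-DQ, is made of RT1-Ba and RT1-Bb. RT1-Ba had 43 reads in all, of which 28 were in Veh + CMS replicate 3, where it reached 1.24 FPKM against 0 to 0.275 in the other 8 libraries. RT1-Bb had 39 reads and was also highest in Veh + CMS replicate 3, at 0.164 FPKM. The chains of RT1.B thus had their highest level in another library than the chains of RT1.D, on few reads.

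RT1-DMa and RT1-DMb encode the chains of DM, which exchanges the invariant chain fragment for a peptide, and RT1-DOa and RT1-DOb those of DO, its inhibitor. RT1-DMa measured 1.40, 0.728 and 0.162 FPKM in Veh, 0.415, 0.518 and 0.139 in Veh + CMS, and 0.525, 0.400 and 0.192 in PHL + CMS. RT1-DMb had 4, 57 and 20 reads in Veh, 0, 71 and 4 in Veh + CMS, and 0 in each PHL + CMS library. In FPKM that was 0.143, 2.17 and 0.808 in Veh, 0, 2.82 and 0.138 in Veh + CMS, and 0 throughout PHL + CMS, so that 2 libraries, replicate 2 of Veh and of Veh + CMS, held most of its reads. Such presence or absence was not seen for its partner RT1-DMa, which had reads in all 9 libraries. RT1-DOb had 56 reads, between 2 and 10 per library, and RT1-DOa had 2.

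Ciita, the coactivator without which class II genes are hardly transcribed, had 5, 1 and 4 reads in Veh, 0, 1 and 1 in Veh + CMS, and 5, 3 and 2 in PHL + CMS, and a mean of 0.0281 FPKM. With 22 reads in all, a moderate difference in Ciita between groups was not detectable at this depth.

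**Figure D3:**
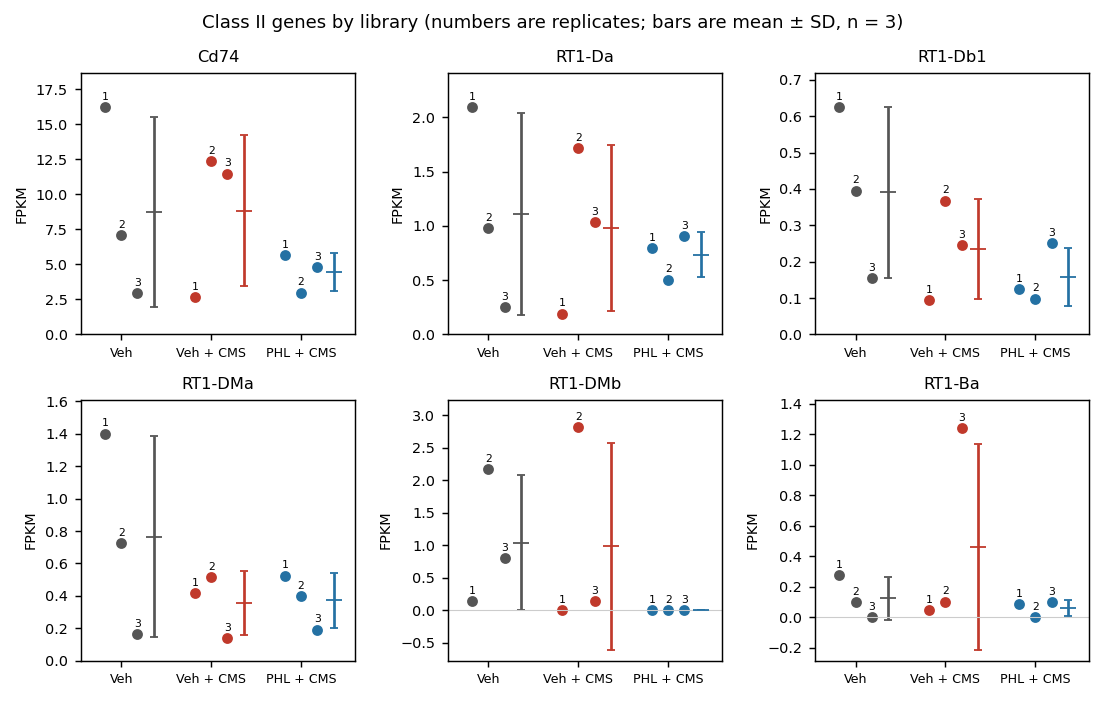
FPKM of 6 class II genes in each library, with the replicate number above each point and the group mean ± SD (n = 3) beside the points. Cd74, RT1-Da and RT1-Db1 share the order of libraries within Veh and within Veh + CMS, RT1-DMb is at 0 in all PHL + CMS libraries, and RT1-Ba is high in Veh + CMS replicate 3.

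Cd74 and the RT1.D chains varied together from library to library. Over the 9 libraries, on the log2(FPKM + 0.1) scale, Pearson's r of Cd74 with RT1-Da was 0.928 (two-sided exact permutation p = 0.000185, adjusted p = 0.00148 over 8 relations) and Spearman's rho 0.983 (exact permutation p = 4.96e-05, adjusted p = 0.000397). After subtraction of group means r was 0.979, and without Veh replicate 1 and Veh + CMS replicate 2, the libraries farthest from the median of Cd74, r was 0.855. With RT1-Db1 r was 0.854 (exact permutation p = 0.00476, adjusted p = 0.0191), rho 0.817 (exact permutation p = 0.0108, adjusted p = 0.0287) and r without those libraries 0.701. RT1-Ba gave r = 0.725 (exact permutation p = 0.0109, adjusted p = 0.029), rho = 0.845 (exact permutation p = 0.00657, adjusted p = 0.0263) and r = 0.877 without them. Veh + CMS replicate 3, which held 28 of the 43 reads of RT1-Ba, was not left out. The other libraries had 0 to 6 reads each, so these values rest on few reads.

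The relation of Cd74 with B2m was looser, with r = 0.690 (exact permutation p = 0.0239, adjusted p = 0.0479), rho = 0.767 (exact permutation p = 0.0214, adjusted p = 0.0428) and r = 0.698 without the same libraries. RT1-Bb, RT1-DMa, RT1-DMb and RT1-DOb gave r from -0.0873 for RT1-DOb to 0.651 for RT1-Bb, none past an adjusted p of 0.05 by the exact permutation test (p for RT1-Bb 0.0605, adjusted p = 0.0969). After subtraction of group means r with Cd74 was 0.648 for B2m, 0.907 for RT1-Db1 and 0.717 for RT1-Ba. The permutations mixed libraries of all groups, so a difference between groups that both genes share also enters these p-values. All values of a library share its dissection and depth. The ratio of Cd74 to RT1-Da was 7.19 to 11.6 in Veh, 7.22 to 13.9 in Veh + CMS and 5.29 to 7.09 in PHL + CMS.

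Class II promoters are known for an X box, bound by the RFX complex, and a Y box, a CCAAT element bound by NF-Y, in a fixed spacing on which Ciita is assembled. The letters GCAAC followed 25 to 40 bases later by ATTGG, in the same direction on either strand, were present in 7 of the 10 class II promoters held by RefSeq, in none of the 22 class I promoters, and in 0.75% of all 33469. ATTGG by itself was present in 37.5% of all promoters. The stretches of the 7 are shown because the gene pair that moved with Cd74 has this arrangement, and so have genes with almost no reads. Capitals mark GCAAC and ATTGG, 5′ to 3′ on the strand of the gene, in GRCr8.
RT1-Da (chr20:4515323-4515380, plus strand): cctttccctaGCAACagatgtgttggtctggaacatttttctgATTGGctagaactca
RT1-Db1 (chr20:4560228-4560284, minus strand): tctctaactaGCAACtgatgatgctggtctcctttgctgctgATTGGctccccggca
RT1-Db2 (chr20:4541698-4541753, minus strand): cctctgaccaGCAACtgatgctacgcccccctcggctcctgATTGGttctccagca
RT1-Ba (chr20:4576971-4577028, plus strand): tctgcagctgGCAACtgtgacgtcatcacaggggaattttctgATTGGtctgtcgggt
RT1-DOb (chr20:4627592-4627646, minus strand): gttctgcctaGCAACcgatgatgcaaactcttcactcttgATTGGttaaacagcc
RT1-DOa (chr20:4758516-4758573, minus strand): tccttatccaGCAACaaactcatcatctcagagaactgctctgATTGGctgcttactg
RT1-Ha (chr20:4772239-4772296, minus strand): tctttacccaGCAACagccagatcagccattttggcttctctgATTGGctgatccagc

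Between the marked letters lie 25 to 28 bases in all 7. Cd74, RT1-Bb and RT1-DMa do not hold the letters in this arrangement within the window. Cd74 was the only class II promoter with the interferon response core. The levels of the 7 genes ranged from no read for RT1-Ha to a mean of 0.942 FPKM for RT1-Da.

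CMS was followed by no called change among these genes. None of the 21 tested genes passed an adjusted p of 0.05 in Veh + CMS compared with Veh, where 3.79% of all tested genes did, either with limma on FPKM or with voom on the recovered reads. At an unadjusted p under 0.05, 1 of the 21 passed, against 22.3% of all tested genes, and for 1 of the 21 every library of one group lay beyond every library of the other, against 27.6%. The median log2 difference was 0.08 over the 21 genes and -0.02 over all genes, with 14 above 0 and 7 below.

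The exception was RT1-N2, which was lower in Veh + CMS, with a log2 difference of -1.02 and an unadjusted p under 0.05 (SE 0.36, 95% interval -1.84 to -0.20, adjusted p = 0.142 by limma). Its mean was 8.77 ± 0.686 FPKM (SD, n = 3) in Veh and 4.56 ± 1.98 in Veh + CMS. Its 4 lowest libraries, the 3 of Veh + CMS and PHL + CMS replicate 2, were the 4 with the highest myelin sums given above. Of these 4, 3 were also among the 4 lowest for 7 genes of meninges and fibroblasts, which summed to 16.2 to 27.0 FPKM in Veh + CMS, 19.5 to 46.4 in Veh and 16.5 to 53.3 in PHL + CMS. The part of either in the RT1-N2 values was not tested. Without Veh replicate 1 the unadjusted p of RT1-N2 was no longer under 0.05, nor was it without Veh + CMS replicate 1, where its difference was -0.67 and RT1-A2, higher in Veh + CMS, was the 1 gene past that threshold.

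Class II genes were not detectably different between Veh and Veh + CMS. The log2 difference was 0.06 for Cd74 (SE 0.69, 95% interval -1.50 to 1.62, adjusted p = 0.974 by limma) and -0.16 for RT1-Da (SE 0.79, adjusted p = 0.935), and it was -0.95 for RT1-DMb (SE 1.29, adjusted p = 0.714), with intervals that leave room for changes of more than 2-fold in either direction. Cd74 turned to -0.55 without Veh replicate 3 and to 0.76 without Veh + CMS replicate 1. B2m differed by 0.08 (SE 0.11, 95% interval -0.17 to 0.34, adjusted p = 0.709 by limma) and turned to -0.05 without Veh + CMS replicate 2. Tapbp differed by 0.01 (SE 0.16, adjusted p = 0.989) and Tap1 by 0.17 (SE 0.35, adjusted p = 0.827).

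**Figure D4:**
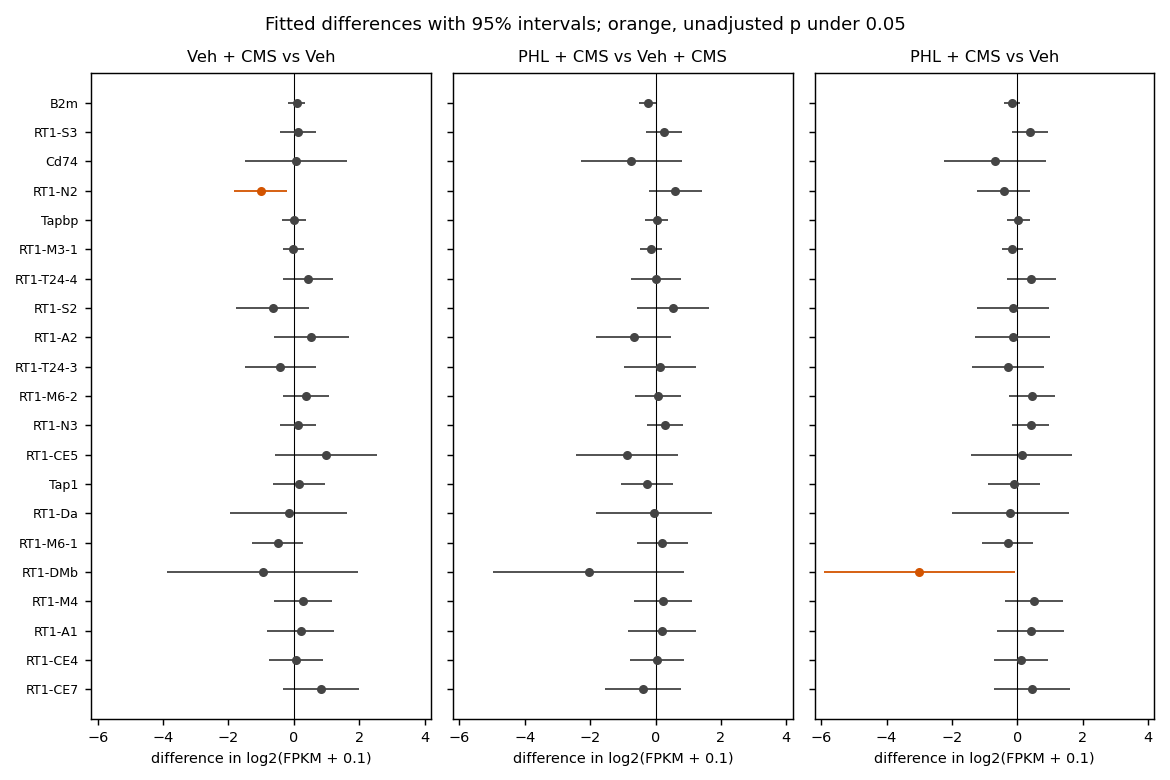
Fitted differences in log2(FPKM + 0.1) of the 21 tested genes in the 3 comparisons, with 95% intervals from limma, ordered by mean FPKM from top to bottom. Orange marks an unadjusted p under 0.05, which RT1-N2 has in Veh + CMS against Veh and RT1-DMb in PHL + CMS against Veh, and the intervals of Cd74, RT1-Da and RT1-DMb are the widest along with that of RT1-CE5.

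PHL under CMS was likewise followed by no called change among the 21 genes. In PHL + CMS compared with Veh + CMS none passed an adjusted p of 0.05, where 0% of all tested genes did, and none passed an unadjusted p of 0.05, against 15.7% of all. The same was found with voom. The 2 groups overlapped for all 21, while they were apart in every library for 21.2% of all tested genes. The median log2 difference was 0.03 over the 21 genes and 0.01 over all, with 12 above 0 and 9 below.

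B2m had the smallest p of them, which missed 0.05 unadjusted, with a log2 difference of -0.24 (SE 0.11, 95% interval -0.49 to 0.01, adjusted p = 0.344 by limma). Of the class II genes, Cd74 was at -0.74 (SE 0.69, adjusted p = 0.636 by limma) and RT1-Da at -0.05 (SE 0.79, adjusted p = 0.982). RT1-DMb was at -2.04 (SE 1.29, adjusted p = 0.476 by limma). It had no read in PHL + CMS and passed the filter only through the other groups. The filter thus favoured a difference for RT1-DMb, and its direction and p support nothing. RT1-N2 was at 0.60 (SE 0.36, adjusted p = 0.453 by limma), Tapbp at 0.03 (SE 0.16, adjusted p = 0.947) and Tap1 at -0.26 (SE 0.35, adjusted p = 0.754). Veh + CMS replicate 1, the lowest library for Cd74 and RT1-Da, decided much of this comparison. Without it 5 of the 21 genes had an unadjusted p under 0.05, all lower in PHL + CMS, against 15.3% of all tested genes. They were B2m, RT1-A2, RT1-DMb, Cd74 and RT1-M3-1, with RT1-DMb under the limit given above. The smallest adjusted p among the 21 was 0.211 by limma. Cd74 was then at -1.44 and RT1-DMb at -3.06, whereas without Veh + CMS replicate 2 they stood at -0.36 and -0.63. Without Veh + CMS replicate 3, and likewise without PHL + CMS replicate 2, RT1-N2 was the 1 gene with an unadjusted p under 0.05, higher in PHL + CMS.

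Markers of several cell types lay to one side of 0 in the same comparison, and none of those given here passed an adjusted p of 0.05. Of 15 microglial genes tested, 14 lay below 0 in PHL + CMS compared with Veh + CMS (median log2 difference -0.38) and 9 had an unadjusted p under 0.05, against the 15.7% of all genes. All 10 myelin genes lay below 0 (median -1.06, 10 with an unadjusted p under 0.05), as did all 7 striatal genes (median -1.26, 5 with an unadjusted p under 0.05). All 6 genes of excitatory neurons lay above 0 (median 0.41, 4 with an unadjusted p under 0.05). So did all 6 tested genes of meninges and fibroblasts (median 0.78, 0 with an unadjusted p under 0.05). The 16 microglial genes in the table summed to 270 to 321 FPKM in Veh, 313 to 383 in Veh + CMS and 253 to 290 in PHL + CMS, with 1 of the 16 at 0 in all libraries. The 7 genes of border macrophages summed to 5.34 to 10.4 FPKM in Veh, 7.34 to 10.4 in Veh + CMS and 5.75 to 11.9 in PHL + CMS, and the highest sum was in PHL + CMS replicate 3, where Cd74 was at 4.79 FPKM. The 6 dendritic cell genes, of which 4 had a mean under 0.5 FPKM, summed to 6.003 to 8.466 FPKM in Veh, 5.73 to 6.88 in Veh + CMS and 6.93 to 8.39 in PHL + CMS. Their lowest sums were in Veh + CMS replicate 1 and Veh replicate 3, the libraries with the lowest Cd74. The match did not hold in all other libraries. In Veh + CMS replicate 2 the sum was 6.42 FPKM with Cd74 at 12.4. In PHL + CMS replicate 3 it was 8.39 with Cd74 at 4.79. The sum hides markers that went opposite ways, since in Veh + CMS replicate 2 Zbtb46 was at its lowest, 2.99 FPKM, and Flt3 at its highest, 3.11. Of B cell markers, all 5 had a mean under 0.5 FPKM and their sums stayed between 0 and 0.201 FPKM in every library. All 7 markers of T and NK cells had means under 0.5 FPKM, with sums from 0.133 FPKM in PHL + CMS replicate 3 to 1.61 in Veh replicate 1. The part of these cells in the levels of B2m and Cd74 was not tested.

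**Figure D5:**
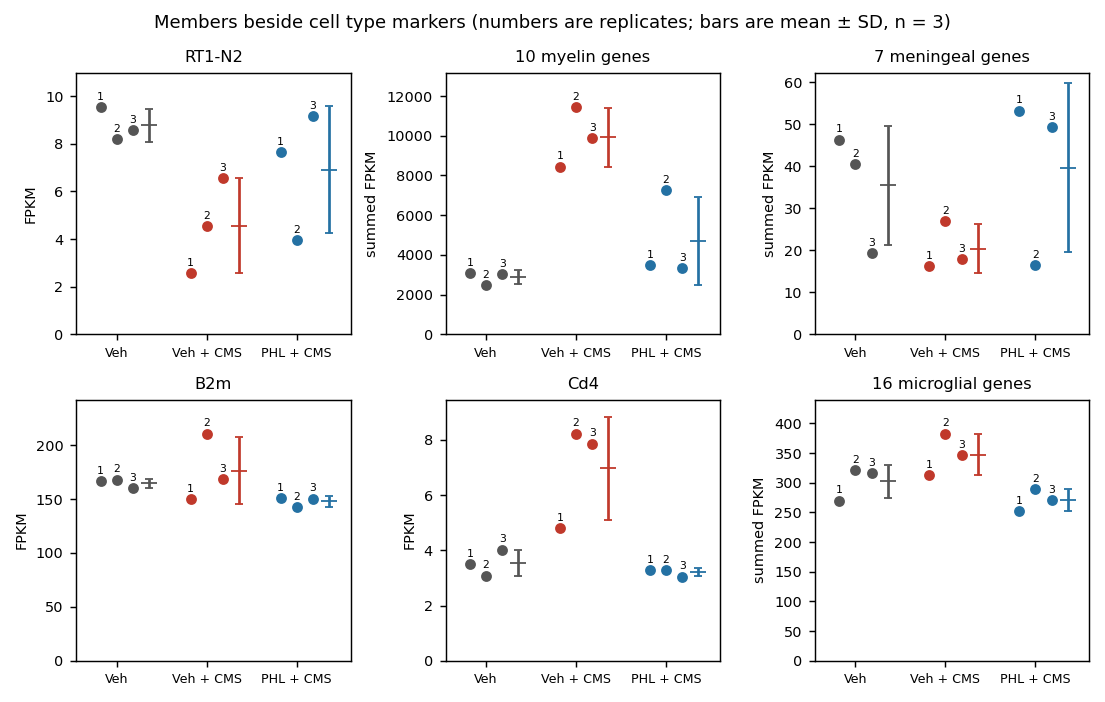
RT1-N2, B2m and Cd4 in FPKM beside the summed FPKM of 10 myelin, 7 meningeal and 16 microglial genes in each library, with replicate numbers and the group mean ± SD (n = 3). RT1-N2 is lowest in the 4 libraries with the highest myelin sums. Cd4, the microglial sum and the myelin sum are higher in each Veh + CMS library than in any PHL + CMS library.

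PHL + CMS against Veh shares its libraries with the other comparisons. Again none of the 21 genes passed an adjusted p of 0.05, where 0% of all tested genes did, with limma or with voom. One passed an unadjusted p of 0.05, against 10.8% of all, and none did with voom. The groups were apart in every library for 4 of the 21, against 17.5% of all, with RT1-N3 and RT1-M4 higher and B2m and RT1-DMb lower in PHL + CMS. The median log2 difference was -0.10 over the 21 genes and 0.00 over all.

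RT1-DMb was the gene with an unadjusted p under 0.05, with a log2 difference of -2.99 (SE 1.29, adjusted p = 0.459 by limma). With a mean of 0.676 FPKM it passed the filter on low values only through the Veh and Veh + CMS libraries where it is high, so the filter itself favoured a difference and this p supports nothing. Since all PHL + CMS libraries were at 0, the fitted value depends on the pseudocount. Its unadjusted p stayed under 0.05 when replicate 1 of Veh or replicate 1 or 2 of Veh + CMS was left out, and rose above 0.05 when any of the other 6 libraries was. Against a floor of 3 reads over the PHL + CMS group, the pooled Veh level was 28.9-fold higher and the pooled Veh + CMS level 25.4-fold higher. Without replicate 2 of Veh that ratio was 12.8-fold, on 24 reads, and without replicate 2 of Veh + CMS it was 1.94-fold, on 4 reads. These ratios allow for counting error in the PHL + CMS group only, not in the reads set against it. They describe a gene that passed the filter through the groups where it is high, and Veh + CMS replicate 1 was also at 0.

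RT1-N3 measured 1.27, 1.14 and 1.28 FPKM in Veh and 1.48, 1.43 and 2.21 in PHL + CMS, with 1.36, 1.68 and 1.07 in Veh + CMS. RT1-M4 measured 0.561, 0.460 and 0.487 FPKM in Veh and 0.670, 1.00 and 0.645 in PHL + CMS, with 0.540, 0.431 and 1.04 in Veh + CMS. Neither difference passed an unadjusted p of 0.05. B2m was at -0.16 (SE 0.11, adjusted p = 0.657 by limma), Cd74 at -0.68 (SE 0.69, adjusted p = 0.762), RT1-Da at -0.21 (SE 0.79, adjusted p = 0.952), RT1-N2 at -0.42 (SE 0.36, adjusted p = 0.722), Tap1 at -0.10 (SE 0.35, adjusted p = 0.947) and Tapbp at 0.04 (SE 0.16, adjusted p = 0.957).

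One gene under the filter, RT1-T24-1, is named after its values were seen. It had 9, 8 and 7 reads in Veh, 14, 10 and 16 in Veh + CMS and 8, 6 and 3 in PHL + CMS, so that each PHL + CMS library lay below each Veh + CMS library in FPKM. In a fit with no filter it was the only 1 of 35 genes with reads that passed an unadjusted p of 0.05 in that comparison, with an adjusted limma p of 0.254, while 12.3% of all genes in that fit did.

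The spread behind these tests was large for most of the genes. The within-group SD on the log2 scale had a median of 0.472 over the 21 genes and of 0.195 over all tested genes, and 14 of the 21 lay above the median of tested genes in the same range of mean FPKM. It was 1.03 for Cd74, while 98.9% of the 5457 genes with a mean of 5 to 20 FPKM varied less. RT1-DMb had 1.73 and RT1-Da 1.12, with 90.8% and 78.1% of the 1645 genes with a mean of 0.5 to 1 FPKM varying less. RT1-N2, in the range of Cd74, had an SD of 0.529, with 96.3% of these genes varying less. RT1-A2 had 0.741, RT1-S2 0.721 and RT1-T24-3 0.705, with 92.2% to 93.1% of the 2863 genes with a mean of 2 to 5 FPKM varying less. B2m, at 0.148, and RT1-M3-1, at 0.171, were near the medians of their ranges, 0.126 and 0.158. The median standard error of a difference was 0.37 for the 21 genes and 0.16 for all genes.

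Genes that act before or after MHC molecules were read from lists written by hand. Of 6 genes for class I assembly (Calr, Canx, Pdia3, Erap1, Tapbpl and Uggt1), all 6 were tested and none passed at either threshold in any comparison. Of 5 genes of the immunoproteasome and its activator, 4 were tested and none passed at either threshold, with all 4 below 0 in PHL + CMS compared with Veh (median log2 difference -0.32 against 0.00 over all genes). Of 10 regulators of MHC transcription, 8 were tested and none passed an adjusted p of 0.05, and Irf2, a repressor of interferon-responsive genes, was the only one with an unadjusted p under 0.05, in PHL + CMS compared with Veh (log2 difference 0.30, SE 0.11, adjusted p = 0.388 by limma). That threshold was passed by 10.8% of all tested genes in the same comparison. Rfx5, a subunit of the X box complex, was even at 8.10 to 9.73 FPKM, while Nlrc5, the class I counterpart of Ciita, had a mean of 0.106 FPKM and was not tested.

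For class II processing, 5 of the listed genes were in the table and tested, and none passed an adjusted p of 0.05. In PHL + CMS compared with Veh + CMS, Ctss, a protease that trims the invariant chain, was at -0.35 with an unadjusted p under 0.05 (SE 0.12, adjusted p = 0.221 by limma), and Ctsl, a further protease of endosomes, at -0.26, likewise (SE 0.09, adjusted p = 0.227 by limma). Marchf1, a ubiquitin ligase that removes class II from the cell surface, was at 0.47, also with an unadjusted p under 0.05 (SE 0.18, adjusted p = 0.264 by limma). Of all tested genes 15.7% passed that threshold in this comparison. Ctss was abundant, with group means of 150 FPKM in Veh, 175 in Veh + CMS and 136 in PHL + CMS, and is also made by microglia.

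No interferon pattern was called. Of 28 interferon-stimulated genes 24 were tested, none passed an adjusted p of 0.05, and at an unadjusted p of 0.05 there was 1 (Gbp5, higher in Veh + CMS compared with Veh), 1 (Herc6, higher in PHL + CMS compared with Veh + CMS) and 0 in PHL + CMS compared with Veh. Of 13 genes of interferon receptors and signaling, all tested, none passed an adjusted p of 0.05 in any comparison. At an unadjusted p of 0.05 there were 2 higher and 2 lower in Veh + CMS compared with Veh, 2 higher and 1 lower in PHL + CMS compared with Veh + CMS, and 0 in PHL + CMS compared with Veh. Of all tested genes 22.3%, 15.7% and 10.8% passed that threshold in these comparisons, in the order given. Of 5 costimulatory genes 3 were tested and none passed an adjusted p of 0.05. Cd86, a ligand of CD28, was at -0.91 in PHL + CMS compared with Veh + CMS with an unadjusted p under 0.05 (SE 0.38, adjusted p = 0.297 by limma).

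Of 7 receptors of MHC molecules only Cd4, the class II coreceptor, reached the filter, and it was the only gene of the pathway lists that passed the test. Cd4 measured 3.49, 3.08 and 4.03 FPKM in Veh, 4.81, 8.22 and 7.86 in Veh + CMS, and 3.29, 3.28 and 3.05 in PHL + CMS. Each Veh + CMS library was above all libraries of the other groups. Cd4 rose by 0.93 on the log2 scale in Veh + CMS compared with Veh (SE 0.20, adjusted p = 0.0426 by limma), and with each library left out in turn its adjusted p ran from 0.049 to 0.154, passing in only 1 of the 9 fits. In PHL + CMS compared with Veh + CMS it was at -1.06 with an unadjusted p under 0.05 (SE 0.20, adjusted p = 0.149 by limma), and in PHL + CMS compared with Veh at -0.13 (SE 0.20, adjusted p = 0.863). In rats CD4 is carried by macrophages and microglia as well as by T cells. The T cell genes Cd3d, Cd3e and Cd3g had means of 0.0679, 0.161 and 0.171 FPKM. Cd3e averaged 0.0859 FPKM in Veh, 0.314 in Veh + CMS and 0.0838 in PHL + CMS. Cd3d and Cd3g had their highest group means in Veh, at 0.119 and 0.449 FPKM. The Veh + CMS libraries with the highest Cd4, replicates 2 and 3, also had the highest sums of the microglial genes and of the myelin genes. In Veh + CMS replicate 1 the microglial sum was 313 FPKM, below Veh replicates 2 and 3 at 321 and 316. Its myelin sum of 8448 FPKM was above every Veh library. Which cells the Cd4 reads came from was not tested. Cd74 and the RT1.D chains were not highest in all 3 Veh + CMS libraries, since replicate 1 was the lowest of the 9 for Cd74 and RT1-Da.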

How the data were processed

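The authors deposited FPKM for 34463 Ensembl genes in 9 libraries. The submitters' processing notes name HISAT2 and Rnor_6.0. Versions, how reads were counted, strand use and the gene annotation were not found in these notes or the main paper, and its supplementary methods were not used here. FPKM times gene length gave whole multiples of 1 step for 100% of values (tolerance 0.001 read), which were taken as reads.

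The 16159 genes that averaged 0.5 FPKM or more were fitted with limma 3.58.1 in R 4.3.3 on log2(FPKM + 0.1), with a variance trend, all 9 libraries in 1 fit, two-sided tests and Benjamini-Hochberg adjustment over all tested genes at 0.05. Relations over libraries were tested by exact permutation. The fit was tested on simulated data. Members and gene lists were chosen with earlier results of these data known. Every tested member was named, with all 9 values for B2m, Cd74, Tap1, Tapbp, tested class II genes and the highest heavy chains, and fold changes for these and for members with an unadjusted p under 0.05. Further heavy chains shown by library, RT1-CE5, RT1-N3, RT1-M4 and RT1-T24-1 among them, and low class II genes were added. Up to 4 genes of a list were named by p. Alternatives were pseudocounts of 1 and 0.01, no filter, a mean FPKM of 1, scalings, pairs of groups, other moderation, library weights, a replicate block, voom on recovered reads and each library left out. Motif letters were counted in RefSeq promoters. Versions of Python, numpy, pandas, scipy and matplotlib were 3.11.15, 2.4.6, 2.3.3, 1.17.1 and 3.10.9.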

Additional observations from a re-analysis of the deposited data

How the results depend on the processing

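No member passed an adjusted p of 0.05 in any comparison under any of the alternatives. The number of all genes called in Veh + CMS against Veh was 613, and it was 301 with no filter, 2 with no variance trend, 1315 with library weights and 0 to 798 with 1 library left out. For PHL + CMS against Veh + CMS it was 0, and 6 with no filter, 1 with no variance trend and 0 to 285 with 1 library left out. For PHL + CMS against Veh it was 0, and 4 with no filter and 0 to 1 with 1 library left out. Members past an unadjusted p of 0.05 in Veh + CMS against Veh were 1, 2 with library weights and 0 to 1 with 1 library left out. In PHL + CMS against Veh + CMS they were 0, 1 with no filter (RT1-T24-1), 1 with quantile normalization (B2m) and 0 to 5 with 1 library left out. For PHL + CMS against Veh they were 1, 0 with a pseudocount of 1, with a mean FPKM of 1 and with voom, 2 in a fit of only those groups and 0 to 2 with 1 library left out. Over these alternatives 16.1% to 26.4%, 10.3% to 18.3% and 7.49% to 12.9% of all tested genes passed that threshold in the 3 comparisons, in the order given.

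Signs that turned belonged to differences that were not called, and the cause was not tested. In Veh + CMS against Veh, Cd74 was -0.083 with library weights and -0.012 with voom, and Tapbp was -0.047 with quantile normalization and -0.0052 when scaled by its own read total. In PHL + CMS against Veh + CMS, Tapbp was -0.096 with library weights, and RT1-Da was 0.020 with a pseudocount of 0.01, 0.072 with quantile normalization, 0.17 with library weights and 0.066 with voom. In PHL + CMS against Veh, Tapbp was -0.0071 with library weights. With 1 library left out, the range in Veh + CMS against Veh was -0.051 to 0.19 for B2m, -0.55 to 0.76 for Cd74, -2.36 to 0.069 for RT1-DMb, -0.87 to 0.61 for RT1-Da and -0.15 to 0.13 for Tapbp. In PHL + CMS against Veh + CMS it was -0.81 to 0.50 for RT1-Da, -0.64 to 0.017 for Tap1 and -0.091 to 0.19 for Tapbp, and in PHL + CMS against Veh -0.92 to 0.40 for RT1-Da, -0.48 to 0.18 for Tap1 and -0.068 to 0.12 for Tapbp.

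No pairing of the libraries by replicate number was seen, and a weak one could have been missed. Same-numbered libraries correlated at -0.0974 to 0.0478 after subtraction of group means, and in 2 of these 9 pairs the correlation was above that of the differently numbered libraries. With the replicate block 0 genes were called in Veh + CMS against Veh, and the unadjusted calls of members were the same 1, 0 and 1. Cd4 lost its call under the block, with no filter, with quantile normalization, in a fit of only those groups and with no variance trend (adjusted p 0.0582 to 0.0842). Of the 37 genes, 16 were too low to test.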
